A study of Rattus norvegicus with 10 samples.

Results

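Chemokines are small secreted proteins that attract white blood cells, and their receptors are G protein-coupled receptors on the cells that respond. The mRNA of this gene family was examined in rat milk whey and serum. Members were chosen by name, as array probes whose gene symbol begins with Ccl, Cxcl, Cx3cl, Xcl, Ccr, Cxcr, Cx3cr or Xcr followed by a digit, with Ccl28 left out. The rule found 56 probes for 49 of the 35469 gene names on the array, of which 31 genes encode ligands and 18 encode receptors. Whey was milked from 3 dams of the inbred strain F344/N on d 2, d 9 and d 16 postpartum, and the same 3 dams gave the milk of each day. The dams received oxytocin and light anaesthesia before milking, and fat, cells and casein were spun out of the milk. Serum of the same dams was taken on d 21, and 1 array measured its mixed RNA, which leaves serum without a replicate. No group carried a treatment or a genetic change.

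Chemokines are grouped by the spacing of their first cysteines. CC chemokines such as Ccl2, Ccl3 and Ccl5 draw mainly monocytes, macrophages and T cells. Cxcl1, Cxcl2 and Cxcl3 are CXC chemokines that draw neutrophils, and their genes are switched on by inflammatory signals through the transcription factor NF-kappa B. Cx3cl1 (fractalkine) is made as a membrane protein from which a soluble form is shed. In milk, chemokines are known as immune components that reach the suckling pups. In the lactating gland, the epithelium that lines the milk ducts is known for making Ccl28, which was not among the genes examined.

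Many inducible chemokine genes lie side by side in the genome. By the array design, on rat build rn4, the probes of Ccl5, Ccl9, Ccl6, Ccl3 and Ccl4 lie on chromosome 10 between positions 71606089 and 71760326, and those of Cxcl2, Cxcl1, Cxcl3 and Cxcl6 on chromosome 14 between 18677236 and 18825719. The probes that measured Ccl5, Ccl4 and Cxcl3 are shown because the results below rest on them, in the sense direction and without a marked part. The exon or untranslated region of each probe was not looked up, as no annotation of this build was used here.
Ccl5, chr10:71606089-71609018, minus strand: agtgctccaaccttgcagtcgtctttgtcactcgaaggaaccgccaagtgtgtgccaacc
Ccl4, chr10:71760267-71760326, plus strand: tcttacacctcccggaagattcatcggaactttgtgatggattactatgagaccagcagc
Cxcl3, chr14:18786864-18786923, minus strand: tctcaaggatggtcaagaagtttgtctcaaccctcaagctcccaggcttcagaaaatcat
Each probe has 60 bases. The match of the Ccl5 probe spans 2930 bases of the genome, so the probe reads across a gap, whereas those of Ccl4 and Cxcl3 span 60 bases.

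The promoters of Cxcl1, Cxcl2 and Cxcl6 are shown because these neighbours each hold the NF-kappa B consensus. The sequences are from RefSeq on build GRCr8 and run from 250 bases before to 50 bases after the start of the gene. Capitals mark the consensus, which was searched on both strands, and overlapping matches are joined.
Cxcl1, chr14:17479272-17479571, minus strand: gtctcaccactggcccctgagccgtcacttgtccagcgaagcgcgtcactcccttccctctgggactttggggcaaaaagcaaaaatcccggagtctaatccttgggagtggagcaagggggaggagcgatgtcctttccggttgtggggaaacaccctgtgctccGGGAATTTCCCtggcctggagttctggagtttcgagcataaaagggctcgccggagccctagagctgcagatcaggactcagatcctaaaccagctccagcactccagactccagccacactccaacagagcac
Cxcl2, chr14:17467206-17467505, minus strand: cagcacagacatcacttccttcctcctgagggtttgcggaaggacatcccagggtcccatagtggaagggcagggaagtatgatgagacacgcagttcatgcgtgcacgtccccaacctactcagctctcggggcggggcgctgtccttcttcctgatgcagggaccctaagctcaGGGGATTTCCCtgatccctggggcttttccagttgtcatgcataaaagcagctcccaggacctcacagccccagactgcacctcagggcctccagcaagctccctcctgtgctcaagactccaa
Cxcl6, chr14:17596368-17596667, minus strand: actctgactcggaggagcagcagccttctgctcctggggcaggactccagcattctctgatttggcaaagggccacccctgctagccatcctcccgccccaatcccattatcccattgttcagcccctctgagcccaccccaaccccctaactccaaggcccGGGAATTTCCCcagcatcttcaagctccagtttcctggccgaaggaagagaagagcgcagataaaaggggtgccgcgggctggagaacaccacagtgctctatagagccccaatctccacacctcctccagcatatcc
The consensus was present in 9 of the 36 family promoters in the table (25%) and in 7.51% of all 33469 promoters. These 9 belong to Ccl7, Ccl9, Ccl20, Ccr3, Cxcl1, Cxcl2, Cxcl6, Cxcl10 and Cxcl11. The promoters of Ccl2, Ccl3, Ccl4, Ccl5 and Cxcl3 were not among the 36 and so were not searched. An interferon-stimulated response element was present in the promoters of Ccl19 and Cxcl10, against 3.92% of all promoters, and TATAAA in 12 of the 36, against 14.2% of all promoters. A match is a run of letters and not evidence of binding. Cxcl1 and Cxcl2 were measured in whey, whereas the Cxcl6 probe was well above background on no array.

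Total signal differed widely between arrays that had received equal amounts of RNA. The 75th percentile of the processed signal was 12.5 to 83.2 on the whey arrays and 4.11 on the serum array, and among the whey arrays it was lowest in d 2 whey of dam 1. Levels below are log2 of the processed signal after quantile normalization of the 10 arrays, and they are compared within a probe only. The lowest normalized level that was well above background was 2.12 to 4.11 on the whey arrays and 5.84 on the serum array, so that a dim probe could be read less well in serum. All 11 probes of mammary epithelium markers such as the caseins were well above background on every whey array. Of these, 8 were also well above background in serum, so the labelled source was seen in their level. Their summed linear level was 678100 to 1141000 on the whey arrays and 7237 on the serum array.

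Few family members were detected, and nearly all of them were ligands. Detection meant a flag of well above background and a processed signal over 20 on at least 1 array of the group. In whey 18 of the 56 probes (32.1%) were detected, against 41.1% of all 41012 probes. These 18 probes stand for 16 ligand genes and 1 receptor gene, Cxcr4. By day, detection reached 4 family probes (7.14%) on d 2, 15 (26.8%) on d 9 and 13 (23.2%) on d 16. Over all probes the shares were 28.7%, 39% and 32.3%. In serum 6 family probes were detected (10.7%), against 8.6% of all probes. The number of family probes detected per array was 1, 1 and 4 on d 2, 3, 11 and 13 on d 9, and 5, 13 and 9 on d 16, for dams 1, 2 and 3. Dam 1 had the lowest number on d 9 and on d 16, and on each of these days its array also had the lowest 75th percentile of the signal (21.2 and 21.5). The part of total signal in these counts was not tested.

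No family probe was detected on all 9 whey arrays. The probe of Cxcl14, a chemokine of epithelia, came closest, as it was well above background on all 9 whey arrays. Its level was 5.85, 4.70 and 5.18 on d 2, 4.77, 5.16 and 2.62 on d 9, and 5.55, 5.40 and 5.47 on d 16, for dams 1 to 3. The days overlapped between d 2 and d 9 and between d 2 and d 16, and d 9 whey of dam 3 was the lowest. At the other end, 34 probes were well above background on no array. They include 17 of the 20 receptor probes. Ligands among them were Ccl7, Ccl11 and Ccl12, which lie beside Ccl2 on chromosome 10, Ccl20, which draws cells to mucosal surfaces, and Cxcl9 and Cxcl11, which share a receptor with Cxcl10. Cxcl10, Cxcl13, Cxcl17 and Xcl1 were seen on 1 or 2 whey arrays each. Cxcl10, an interferon-induced attractant of T cells, ranged from 0.81 to 3.24 in whey and was well above background in dam 3 on d 9 and d 16. Cxcl13, an attractant of B cells, ranged from 0.87 to 5.63 and was well above background in dam 2 on d 16 alone. Cxcl17, a chemokine of mucosal surfaces, ranged from 1.50 to 4.09, with dam 2 well above background on d 9 and d 16, and Xcl1 (lymphotactin) from 1.40 to 3.79, with dam 1 on d 9 and dam 3 on d 16.

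**Figure D1:**
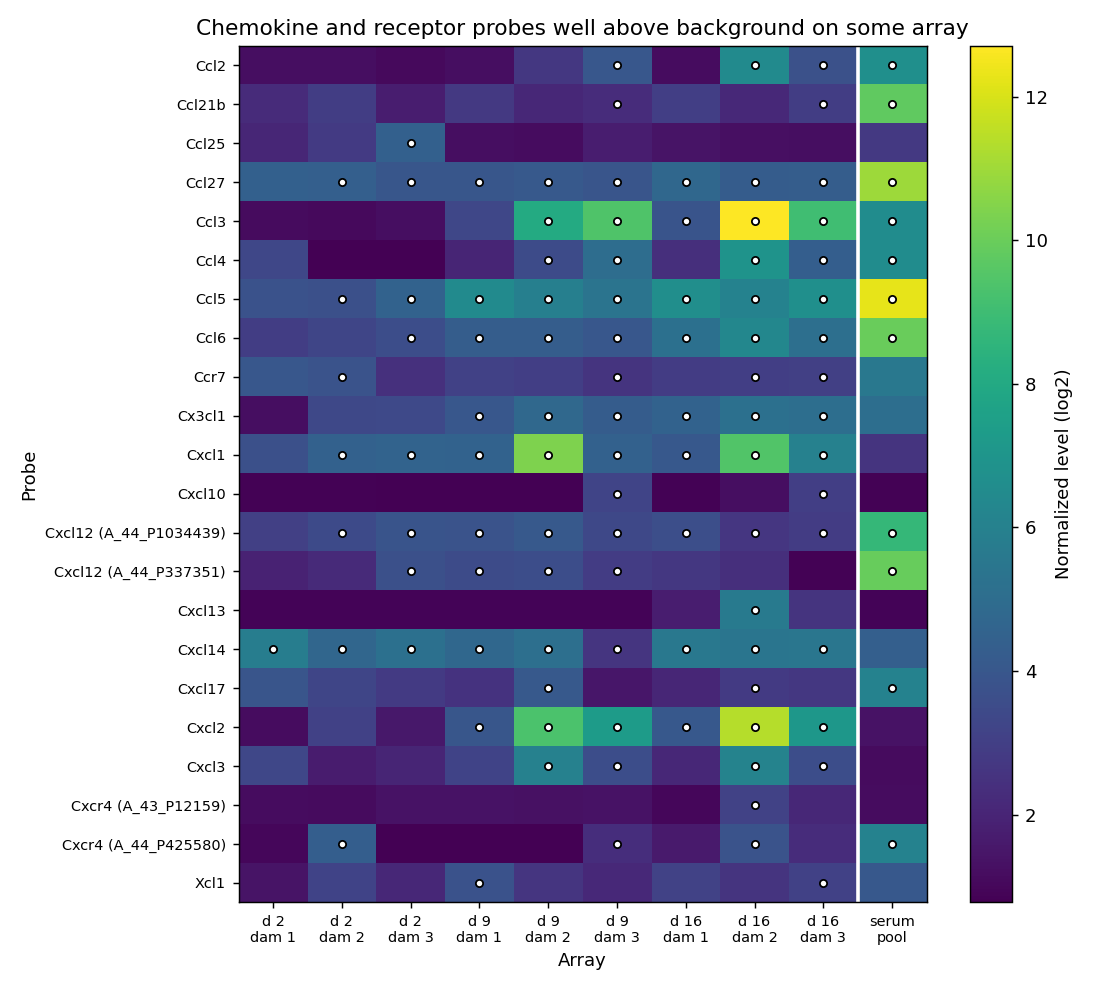
Normalized level (log2, colour) of the 22 family probes that were well above background on at least 1 array, in the 9 whey arrays and the serum pool. White points mark values well above background; Cxcl14 has a point on all 9 whey arrays, whereas Ccl25, Cxcl13 and 1 Cxcr4 probe have a point on 1 array each.

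Between d 2 and d 16, 4 ligands rose and 1 fell. Ccl5, Ccl6, Cx3cl1 and Ccl3 were higher in d 16 whey and Ccl25 was lower, by limma with p-values adjusted (Benjamini-Hochberg) across 16849 whey-detected probes at a threshold of 0.05. These are 5 of the 18 family probes tested (27.8%), and 28.5% of all probes tested were called in this comparison. In the higher direction they are 22.2%, against 16% of all probes, and in the lower direction 5.56%, against 12.4%. From d 2 to d 9 Ccl5 alone was called (5.56%), against 17.6% of all probes, and with dam as a block, the paired design, 3 were called (16.7%), Ccl5, Cx3cl1 and Cxcl2, against 18.4% of all probes. From d 9 to d 16 limma called 0 family probes, against 1.42% of all probes, and the Tukey-Kramer test also called 0. At an unadjusted p under 0.05 by limma there were 2 of the 18 family probes, against 3159 of all 16849 probes tested. The F test over the 3 days called Ccl5, Ccl6 and Cx3cl1 (16.7%), against 25.6% of all probes, and with dam as a block it called 5 (27.8%), with Ccl3 and Cxcl2 added, against 25.7% of all probes. The median difference of the 18 probes from d 2 to d 16 was 1.93 (log2), and that of all probes tested was 0.0417. Of these 18 probes only 4 were detected in d 2 whey, so most entered the test through d 9 or d 16, where they are bright. A higher median was in part built in by this filter and does not show a rise of the family. The shares called by direction carry the same limit. Of the probes called, Ccl6, Cx3cl1 and Ccl3 were not detected in d 2 whey, and Ccl25 was detected in d 2 whey alone. In addition, 6 of the 18 probes were detected on 1 whey array alone, and a probe that entered the test through the group where it is bright had to differ. In whey, fewer cells of a type upstream and less RNA per cell cannot be told apart.

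Ccl5 (RANTES), which draws T cells, monocytes and eosinophils, had a level of 3.76, 3.70 and 4.55 in d 2 whey, for dams 1 to 3. In d 9 whey it was 6.50, 5.95 and 5.37, and in d 16 whey 6.67, 6.08 and 6.73. All values of d 9 and d 16 lay above all values of d 2, and 2 of the 3 d 2 arrays and every later array measured the probe well above background. The mean rose from 4.00 ± 0.47 on d 2 to 5.94 ± 0.57 on d 9 (SD, n = 3), a difference of 1.94 ± 0.35 (log2, SE) with an adjusted p of 0.011 by limma. On d 16 the mean was 6.50 ± 0.36 (SD, n = 3), a difference from d 2 of 2.50 ± 0.35 (SE) with an adjusted p of 0.00254 by limma. Slide 2 held all d 9 arrays and d 2 whey of dam 3. Within that slide the d 9 mean was 1.40 above the d 2 array, and with slide as a fixed block this difference had an adjusted p of 0.148. All d 16 arrays lay on a slide of their own that was scanned on a later day, so that day, slide and scan day cannot be told apart for d 16. In equal volumes of whey, the quantitative PCR of the study found no change of Ccl5 over lactation.

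Ccl6, a CC chemokine of rodents made by myeloid cells, was 2.94, 3.27 and 3.61 in d 2 whey and 4.28, 4.28 and 4.01 in d 9 whey. In d 16 whey it was 5.19, 6.31 and 5.14, with dam 2 the highest. The 3 days did not overlap, and 1 of the 3 d 2 arrays and every later array measured the probe well above background. The difference from d 2 to d 16 was 2.28 ± 0.33 (log2, SE), with an adjusted p of 0.00273 by limma. Its step from d 9 to d 16, 1.36 ± 0.33, did not pass (adjusted p = 0.0948 by limma), but it did with a minimum signal of 100. It also passed with slide as a random block, but that model cannot separate slide from day, as the d 16 arrays had a slide of their own.

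Cx3cl1, whose receptor Cx3cr1 marks monocytes and macrophages, was 1.22, 3.37 and 3.40 in d 2 whey. It was 4.02, 4.83 and 4.23 in d 9 whey and 4.53, 5.18 and 5.09 in d 16 whey. No d 2 array was well above background and every later array was. After quantile normalization the d 16 mean was at least 2.47-fold higher than that of d 2 (adjusted p = 0.0223 by limma). With normexp background correction the difference was 0.53 (log2, adjusted p = 0.00181 by limma). From d 2 to d 9 the adjusted p was 0.077, and it was 0.0369 with dam as a block. The d 16 call was lost without d 16 whey of dam 2 or dam 3 (adjusted p = 0.0702 and 0.0712). It was lost as well with all probes tested (adjusted p = 0.056 by limma), and the Tukey-Kramer test did not make the call. The second Cx3cl1 probe was well above background on no array.

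Ccl3 (MIP-1 alpha), an inflammatory attractant of monocytes and lymphocytes, was not well above background in d 2 whey, with levels of 1.14, 1.09 and 1.23. It was 3.33, 8.08 and 9.44 in d 9 whey and 3.88, 12.71 and 9.04 in d 16 whey. Dams 2 and 3 were far above dam 1 on both later days, and the processed signal of dam 2 on d 16 was 12160, against 1.98 to 2.38 on d 2. After quantile normalization the d 16 mean was at least 33.8-fold higher than that of d 2. This bound is for the mean of the dams and not for each dam. In dam 1 the d 16 level lay below the lowest level well above background on its d 2 array (4.11). The difference from d 2 to d 16 was 7.39 (log2), with an adjusted p of 0.0437 by limma. This call was lost when any d 2 array, d 9 whey of dam 2, or d 16 whey of dam 2 or dam 3 was left out, with adjusted p-values of 0.0642 to 0.116. It was lost as well with 75th percentile scaling (adjusted p = 0.0528), normexp background correction (3.21, adjusted p = 0.0802), all probes tested (adjusted p = 0.107) and the Tukey-Kramer test (adjusted p = 0.19).

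Ccl25 (TECK), known for drawing lymphocytes to the gut, was the member that fell. Its level was 2.04, 2.78 and 4.44 in d 2 whey, of which dam 3 was well above background. It was 1.20, 1.19 and 1.71 in d 9 whey and 1.39, 1.27 and 1.23 in d 16 whey, none well above background. The difference from d 2 to d 16 was -1.79 (log2, adjusted p = 0.0395 by limma). No least fold can be given, as the d 2 levels of dams 1 and 2 were not well above background either. This call rests on dim values, as it was lost with normexp background correction (-0.13 on the log2 scale, adjusted p = 0.387) and with spike-in scaling (adjusted p = 0.171). With all probes tested the adjusted p was 0.0938 by limma, and the Tukey-Kramer test did not make the call. The call was also lost when any array other than d 2 whey of dam 1 or dam 3 was left out (adjusted p = 0.0525 to 0.105), and without d 2 whey of dam 3 the difference was -1.12.

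**Figure D2:**
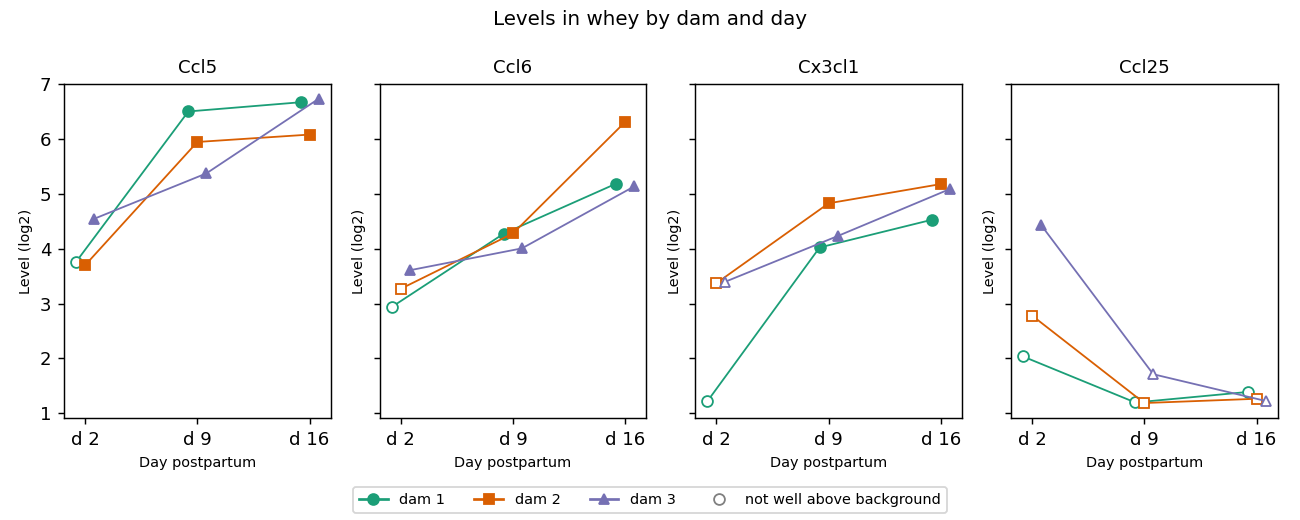
Normalized level (log2) of Ccl5, Ccl6, Cx3cl1 and Ccl25 in whey of the 3 dams by day postpartum, each line a dam and open symbols not well above background. Ccl5, Ccl6 and Cx3cl1 were lowest on d 2 in all 3 dams, and Ccl25 was highest on d 2 in all 3 dams.

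The neutrophil attractants Cxcl1, Cxcl2 and Cxcl3 and the inflammatory CC chemokines Ccl2 and Ccl4 differed between dams on the later days. Cxcl1 was 3.69, 4.48 and 4.57 on d 2, 4.55, 10.38 and 4.50 on d 9, and 4.06, 9.47 and 6.02 on d 16. Dam 2 was thus near the others on d 2 and highest on both later days. The SD of the 3 dams was 0.49 on d 2, 3.38 on d 9 and 2.74 on d 16. The differences from d 2, 2.23 ± 1.81 on d 9 and 2.27 ± 1.81 on d 16 (log2, SE), did not pass, with adjusted p-values of 0.412 and 0.381 by limma. By quantitative PCR in equal volumes, the study found Cxcl1 unchanged over lactation and at similar levels in whey and serum.

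Cxcl2 (MIP-2) was 1.18, 3.08 and 1.54 in d 2 whey, none of which was well above background. It was 3.96, 9.33 and 7.30 in d 9 whey and 4.08, 11.38 and 7.07 in d 16 whey. All later values lay above all d 2 values, and on both later days dam 2 was highest and dam 1 lowest. After quantile normalization the Cxcl2 mean was at least 10.6-fold higher in d 9 whey and 16.5-fold higher in d 16 whey than in d 2 whey. In dam 1 both later levels lay below the lowest level well above background on its d 2 array (4.11), so these bounds do not hold for each dam. With normexp background correction the differences were 1.66 and 2.22 (log2). Neither difference passed in the main analysis (adjusted p = 0.114 and 0.065 by limma). With dam as a block both did, with adjusted p-values of 0.0257 and 0.0129.

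The Cxcl3 probe shown above read 3.33, 1.67 and 2.03 on d 2, 3.19, 6.02 and 3.62 on d 9 and 2.10, 6.12 and 3.58 on d 16. Dam 2 was highest on both later days, as for Cxcl1 and Cxcl2. The second Cxcl3 probe lies 19167 bases away in rn4 and was well above background on no array, so the 2 probes of this gene disagreed.

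Ccl4 (MIP-1 beta), an attractant of monocytes and lymphocytes, was 3.32, 0.78 and 0.78 in d 2 whey, none of which was well above background. It was 2.00, 3.52 and 5.05 in d 9 whey and 2.38, 6.91 and 4.35 in d 16 whey. Ccl2 (MCP-1), the main attractant of monocytes, was 1.21, 1.21 and 1.08 on d 2, 1.23, 2.73 and 4.02 on d 9, and 1.16, 6.51 and 3.73 on d 16. In dam 1 neither of these 2 probes was well above background on any day. The adjusted p from d 2 to d 16 was 0.127 for Ccl4 and 0.154 for Ccl2 by limma.

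**Figure D3:**
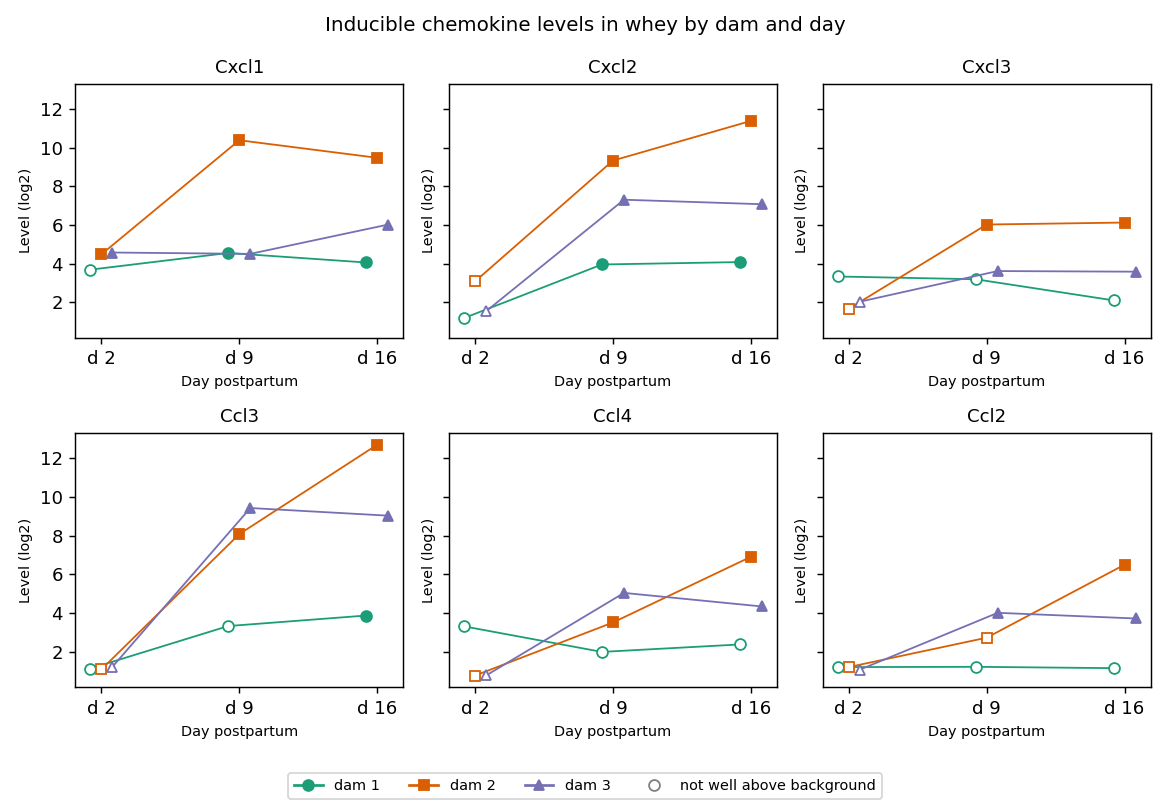
Normalized level (log2) of Cxcl1, Cxcl2, Cxcl3, Ccl3, Ccl4 and Ccl2 in whey by day postpartum, each line a dam and open symbols not well above background. On d 16 dam 2 was highest for all 6 genes, up to 12.71 for Ccl3, and dam 1 was lowest for all 6.

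Dams were compared by an F test in a model that also held the day. It called 0 family probes and 0 of all probes (0%) by limma, with a smallest adjusted p of 0.388. At an unadjusted p under 0.05 there were 3 of the 18 family probes, Cxcl2 (0.00806), Cxcl1 (0.034) and Cx3cl1 (0.0491), and 10.5% of all probes. This test looks for a dam that differs alike on every day.

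Other genes moved along with these arrays. Il1b, a cytokine that induces chemokine genes, was read by 2 probes, of which the first was 1.05, 1.43 and 1.11 on d 2, 3.65, 5.02 and 5.65 on d 9, and 4.21, 8.50 and 5.69 on d 16. It rose from d 2 to d 16 by both probes (4.93 and 5.00, adjusted p = 0.0101 and 0.0139 by limma), and with normexp background correction the adjusted p-values were 0.0522 and 0.0503. The neutrophil marker S100a9 was 2.95, 2.72 and 1.54 on d 2, 1.74, 6.55 and 4.91 on d 9, and 3.00, 7.92 and 4.98 on d 16, again with dam 2 highest on the later days. Mpo, another neutrophil marker, went the other way at 4.73, 4.05 and 3.97 on d 2, 2.57, 1.21 and 2.44 on d 9, and 1.85, 1.25 and 1.10 on d 16, and it was well above background on 3, 1 and 0 arrays of these days. Of 13 neutrophil marker probes 1 to 2 were well above background on the d 2 arrays, 0 to 5 on the d 9 arrays and 1 to 4 on the d 16 arrays. Their summed linear level was 61.1 to 73.6 on d 2, 34.7 to 206 on d 9 and 54.3 to 434 on d 16, and it was highest in dam 2 on each day. The defining markers Elane, Mmp8 and Csf3r were well above background on no array. Of the 5 neutrophil probes tested, limma called 0 in any day comparison.

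Macrophage markers moved with the day. Of 22 probes 6 to 7 were well above background on d 2 arrays and 12 to 13 on d 9 and d 16 arrays. Their summed linear level was 525 to 612.5 on d 2, 619.2 to 1349 on d 9 and 2260 to 2586 on d 16. From d 2 to d 16, 10 of the 13 probes tested rose, such as C1qa, Lyz2 and Cd68, and both probes of Cd14 fell, though not with spike-in scaling (adjusted p = 0.327 and 0.665). Csf1r, Cd163, Marco and Msr1 were well above background on no array. Of the 13 T and NK cell probes 3 were well above background on every d 2 array and 3 to 6 on the d 16 arrays, and the summed level was 87.4 to 132.5 on d 2 and 205.1 to 258.9 on d 16. Of the 5 tested, 3 rose from d 2 to d 16 by limma, namely Cd3d (1.84, adjusted p = 0.00283), Cd3g (1.16, adjusted p = 0.0164) and Nkg7 (1.09, adjusted p = 0.0293), and with spike-in scaling the last 2 did not pass (adjusted p = 0.138 and 0.163). The erythroid marker filed as LOC287167, the 1 probe of its list that was tested, also rose (2.12, adjusted p = 0.00134 by limma). The part of these cell types in the levels of Ccl5, Ccl6, Cx3cl1, Ccl3 and the other ligands was not tested.

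The receptor side gave little signal. Cxcr4, the receptor of Cxcl12, was detected on d 16 in dam 2 by the probe that was tested, with levels of 1.01, 4.32 and 0.80 on d 2, 0.80, 0.80 and 2.31 on d 9, and 1.62, 3.83 and 2.28 on d 16. The days overlapped, and the other Cxcr4 probe was well above background on 1 array. Ccr7, the receptor that guides dendritic cells and T cells to lymph nodes, was well above background on 4 whey arrays but with a processed signal under 20 on each. Ccr1, Ccr2, Cxcr3 and Cx3cr1, which bind many of the ligands above, were well above background on no array. Neither were the receptors of Cxcl1, Cxcl2 and Cxcl3, which the array files as Il8ra and Il8rb.

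Of 37 tested probes for signalling proteins downstream of the receptors, 11 rose and 5 fell from d 2 to d 16, beside 16% and 12.4% of all probes. Their median difference was 0.37 (log2). Among those that rose was Rac2, a GTPase of blood cells (3.58, adjusted p = 0.00157 by limma). Both probes of the kinase Lyn fell (-0.94 and -0.87, adjusted p = 0.0131 and 0.018). With spike-in scaling 2 of these probes rose, Rac2 among them, and limma called 0 lower. Of 16 probes for inducers of chemokine genes, 2 rose, both of them probes of Il1b. Tnf, Ifng and Il1a were well above background on no array. Of 7 probes for proteins that process or bind chemokines, 3 rose, namely Sdc4, Cd74 and Mmp12. Family members filed under other symbols had 3 probes tested, of which Pf4 (CXCL4), stored in platelets, fell (-1.73, adjusted p = 0.0134 by limma, and 0.408 with spike-in scaling).

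Several ligands were brighter in serum than in whey. No test was possible with 1 serum array, so differences over 4-fold between the mean of the 9 whey arrays and serum were counted. Of 22 family probes well above background on at least 1 array, 11 (50%) passed this fold toward serum and 3 (13.6%) toward whey, but the 3 toward whey were not readable in serum. Over all such probes 15.7% passed toward serum and 27.3% toward whey. With spike-in scaling the family counts were 4 toward serum and 5 toward whey, and with normexp background correction 6 and 0. Of the 11 probes toward serum, Ccr7 was not well above background there.

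The 6 probes detected in serum belong to Ccl5, Ccl27, Ccl6, Ccl21b and Cxcl12. Ccl5 was 12.27 in serum and 3.70 to 6.73 in whey (median 5.95), and its processed signal before normalization was 570 in serum and 7 to 157 in whey. In equal volumes, the quantitative PCR of the study found Ccl5 at similar levels in whey and serum. At the protein level the study measured more CCL5 in serum than in whey. Ccl27, a chemokine of skin that draws T cells, was 10.94 in serum and 3.91 to 4.76 in whey (median 4.23), with little spread between days. On d 2 it was 4.45, 4.39 and 3.97, on d 9 it was 3.97, 4.12 and 3.91, and on d 16 it was 4.76, 4.23 and 4.32. Ccl21b, a lymph node chemokine that binds Ccr7, was 9.81 in serum. In whey it was 2.25, 2.96 and 1.72 on d 2, 2.74, 2.13 and 2.29 on d 9, and 3.00, 2.16 and 2.95 on d 16, and 2 of these 9 values were well above background. Ccl6 was 9.96 in serum and 2.94 to 6.31 in whey (median 4.28), but its processed signal before normalization, 97 in serum, lay within that of whey.

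Cxcl12, a chemokine of stromal cells that holds blood stem cells in the bone marrow, was measured by 2 probes. They read 8.72 and 9.92 in serum. In whey the first read 3.03, 3.45 and 3.87 on d 2, 3.81, 4.09 and 3.38 on d 9, and 3.66, 2.66 and 2.90 on d 16. The second read 1.91, 2.21 and 3.67 on d 2, 3.51, 3.58 and 2.88 on d 9, and 2.71, 2.38 and 0.82 on d 16. Serum was above every whey array for each of these 6 probes after normalization. Erythroid and platelet markers were high in serum, with 4 of 5 and 6 of 7 probes well above background, against 1 to 2 and 0 to 2 on the whey arrays, and their part in the serum levels was not tested.

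The 3 probes that passed toward whey were Cxcl1, Cxcl2 and Cxcl3. None of them was well above background in serum, where they read 2.56, 1.34 and 1.12, below the lowest level of 5.84 that could be read there. Their whey means of 5.75, 5.44 and 3.52 lay below that level too, so that the means do not show a higher level in whey. On the arrays of dam 2 on d 9 and d 16 all 3 lay above that level, Cxcl1 at 10.38 and 9.47.

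**Figure D4:**
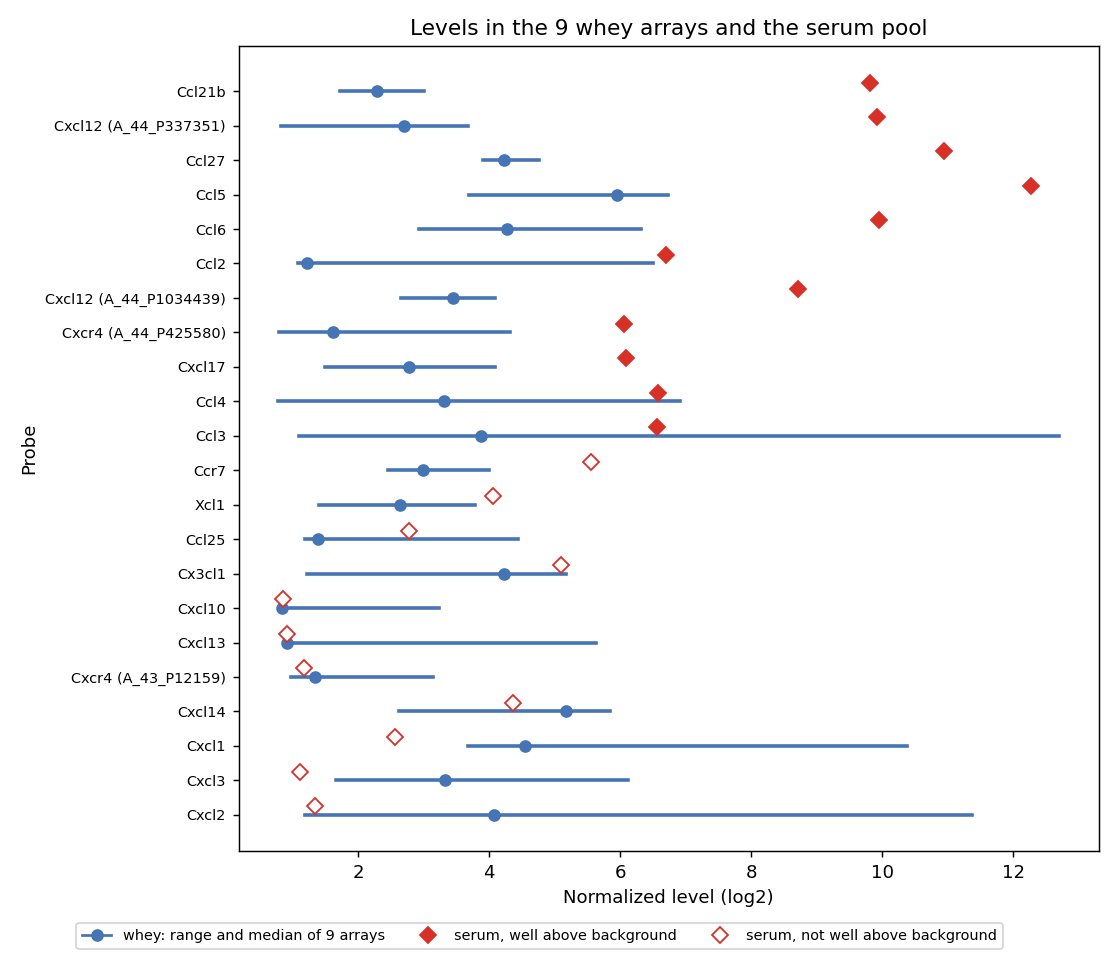
Normalized level (log2) of the 22 family probes in whey (line, range of 9 arrays; point, median) and in the serum pool (diamond; open, not well above background), in the order of the difference. Ccl21b, Cxcl12, Ccl27, Ccl5 and Ccl6 in serum lay above every whey array, whereas Ccl3 in serum (6.56) lay inside the whey range of 1.09 to 12.71.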

How the data were processed

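Whey mRNA of 3 rat dams on d 2, d 9 and d 16 (9 arrays) and pooled serum mRNA (1 array) were analysed from the deposited scanner files. Per the file headers, the authors' Feature Extraction 9.5.3.1 gave a processed signal, an intensity on a linear scale that was corrected for a spatial trend and not normalized between arrays, and other values, flags of 0 or 1 for spots well above background. The deposited intensity of mean and background signals was used for an alternative. A deposited table of the series has 10 columns whose names match no sample label, and it was not used.

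Here processed signals were quantile normalized on the log2 scale across the 10 arrays. The study's methods name quantile normalization without these details. Outlier-flagged spots were then set to missing (1 family spot) and spots of a probe averaged. limma 3.58.1 in R 4.3.3 (lmFit and eBayes, two-sided) compared days on the 9 whey arrays, which share the spread (1.83 prior degrees of freedom), with Benjamini-Hochberg adjustment. The precision is limited by the 3 arrays per day. The fit was tested on simulated data. A bound on a fold sets the brighter mean against whichever is larger on each dim array, the lowest signal well above background or that of the probe. Labels number the dams alike on each day, so samples pair by animal; deviations of the same dam from the day means correlated at -0.0185 to 0.218 between days. RefSeq accessions matched 52 of 56 probes, and current symbols differed for 2, Ccl21b (Ccl21) and Cxcr7 (Ackr3). Values on every array are given for probes called, detected on all whey arrays or in serum, and for the 5 with the widest range in whey; Cxcl14, Cxcl3 and Cxcr4 were added after their values were seen. Members and lists were chosen with earlier results of these data known. Alternatives covered scaling, background, filter, dam or slide as a block, and arrays left out. Some results on single genes are not reported here.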

Additional observations from a re-analysis of the deposited data

How the results depend on the processing

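No named difference of Ccl2, Ccl3, Ccl4, Ccl5, Ccl6, Ccl25, Cx3cl1, Cxcl1 or Cxcl2 on d 9 or d 16 against d 2 changed direction under any alternative run. For calls the cause was not tested, unless fewer or more probes or arrays are named. From d 2 to d 9 the count of family probes called was 1 and became 3 with 75th percentile scaling, 10 with spike-in scaling, 2 with normexp, 3 with dam as a replicate block and 0 with the Tukey-Kramer test. From d 2 to d 16 it was 5 and became 10 with spike-in scaling, 3 with normexp, 3 with all probes tested and 2 with the Tukey-Kramer test. From d 9 to d 16 it was 0 and became 1 (Ccl6) with a minimum signal of 100 or with slide as a random block. The slide block cannot separate slide from day in that step. The F test over days went from 3 to 11 with spike-in scaling and 5 with dam as a replicate block, and the F test over dams from 0 to 7 with spike-in scaling. Under spike-in scaling the median difference over all tested probes became 1.52 on d 9 and 0.586 on d 16, each against d 2 (log2).

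Leaving out each array in turn gave 1 to 2 family calls from d 2 to d 9, 2 to 7 from d 2 to d 16, 0 to 0 from d 9 to d 16 and 2 to 4 in the F test over days. Ccl5 and Ccl6 kept their d 16 calls in all 9. The count from d 2 to d 16 was 3 without d 2 whey of dam 2, d 9 whey of dam 2 or d 16 whey of dam 2, and 2 without d 16 whey of dam 3. From d 2 to d 9 it was 2 without d 2 whey of dam 1, d 2 whey of dam 3 or d 16 whey of dam 2. Without all 3 arrays of dam 2, an alternative chosen after seeing the data, it was 0 from d 2 to d 9, 1 (Ccl6) from d 2 to d 16 and 0 in the F test, with 6 arrays left.

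Detected family probes in d 2, d 9, d 16 whey and serum went from 4, 15, 13 and 6 to 10, 19, 20 and 11 with no minimum signal and to 0, 6, 8 and 2 with a minimum of 100. With an array left out they were 1 to 4 on d 2, 11 to 15 on d 9 and 9 to 13 on d 16, and 1 without d 2 whey of dam 3. Probes over 4-fold higher in whey than serum went from 3 to 5 with spike-in scaling and 0 with normexp, and those higher in serum from 11 to 4 and 6.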
